A study of Arabidopsis thaliana with 6 samples.

Results

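Expression of 10 heat stress genes was followed in wild-type Arabidopsis thaliana seedlings kept with melatonin, an indoleamine made from tryptophan. The genes were HSFA2 (AT2G26150), HSFA7A (AT3G51910), DREB2A (AT5G05410), MBF1C (AT3G24500), HSP101 (AT1G74310), HSP90.1 (AT5G52640), HSP70 (AT3G12580), ROF2 (AT5G48570), HSP17.6II (AT5G12020) and HSP21 (AT4G27670). All 10 were found by identifier among the 32678 genes of the deposited count table, and 8 of them passed the filter on low counts. They had been chosen with earlier results of these libraries known, over the same doses, so their levels, changes and calls are a description and no test is attached to them singly. The plants were 7 days old, wild type (no mutation or transgene), grown on plates of MS, a mineral medium for plant culture, and held for 12 h with 0, 100 or 1000 µM melatonin. Each of the 3 groups had 2 RNA-seq libraries, named by the labels as leaf, and the controls were kept for the same 12 h without melatonin. The labels do not state whether a pair of libraries came from different plants, so errors and p-values cover only the spread between libraries, which may be technical.

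When proteins unfold in heat, heat stress transcription factors (HSFs) are freed from chaperones and bind heat shock elements, which are inverted repeats of the letters GAA and TTC before their target genes. The class A1 HSFs start the response in Arabidopsis and switch on further regulators, among them HSFA2, HSFA7A, DREB2A and MBF1C. The targets are chaperones: HSP101 pulls apart protein aggregates, HSP70 and HSP90 fold and hold client proteins, and small HSPs bind unfolding proteins. HSP90 also binds HSFs themselves, and ROF2 is an FKBP-type co-chaperone. The same genes answer other stresses that damage proteins, and many chaperone families also hold constitutive members that every cell uses.

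The letters of heat shock elements were looked for upstream of each coding sequence, because these elements are what the listed genes are best known to share. A pair of repeats was searched as GAANNTTC or TTCNNGAA, and a run of 3 repeats as GAA, TTC and GAA or as TTC, GAA and TTC, with 2 free bases between units, which contains overlapping pairs. Both strands were read. In the 250 bases before the annotated gene start, a 3-unit run was present for 3 of 10 genes (HSFA2, HSFA7A and DREB2A), against 0.393% of 26711 nuclear protein-coding genes. Annotated starts differ in how far they lie from the coding sequence, so the 500 bases before the start codon were searched too, a window chosen after the first result was seen. There 4 of 10 genes held a 3-unit run (HSP90.1, HSP70, HSFA2 and HSFA7A), against 1.19% of all, and 8 of 10 held a pair, against 33.8%. ROF2 had none in either window. The dehydration-responsive element that DREB proteins bind (ACCGAC or GCCGAC) was found in 1 of 10 windows of 500 bases, that of HSP70, against 12.9% of all. A match of letters is a description and does not show that a factor binds there.

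The stretches below hold every 3-unit run found in either window, and a pair each for MBF1C and HSP101. Other pairs, among them those of HSP17.6II and HSP21 and another of MBF1C, are not shown. Each stretch has 30 bases from the RefSeq assembly TAIR10.1. It is read 5′ to 3′ on the gene's strand, with the GAA and TTC units in capitals.
HSFA2, chr2:11135528-11135557, plus strand: ttagtaacGAAgtTTCtgGAAcattgtctt
HSFA7A, chr3:19264941-19264970, plus strand: ttacgaagTTCcaGAAgtTTCgactattcg
HSFA7A, chr3:19264991-19265020, plus strand: aaaaccgtTTCcaGAAgtTTCtaatttcta
DREB2A, chr5:1602033-1602062, plus strand: cagcgtgtTTCgaGAAgaTTCgggaggaca
HSP90.1, chr5:21352254-21352283, plus strand: aacgaaaaGAActTTCtgGAAttcgtttgc
HSP70, chr3:3993845-3993874, minus strand: ttactcgtGAAcgTTCtcGAAagctctttg
MBF1C, chr3:8918569-8918598, plus strand: atcatctctaaGAAcgTTCcagagacgaaa
HSP101, chr1:27940322-27940351, minus strand: ataaaataagcGAAaaTTCcacgtgacatc
The first 6 hold 3 units in a row and the last 2 a pair. The run before HSFA2 began 88 bases before its gene start, those before HSFA7A 192 and 142 bases, and that of DREB2A 164 bases. The run of HSP90.1 began 295 bases before its start codon, in a gene model that starts at that codon. The run of HSP70, 177 bases before its start codon, lies inside the annotated gene, as do the pairs shown for MBF1C and HSP101. As the values below show, genes with a 3-unit run had unlike courses over the doses.

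**Figure D1:**
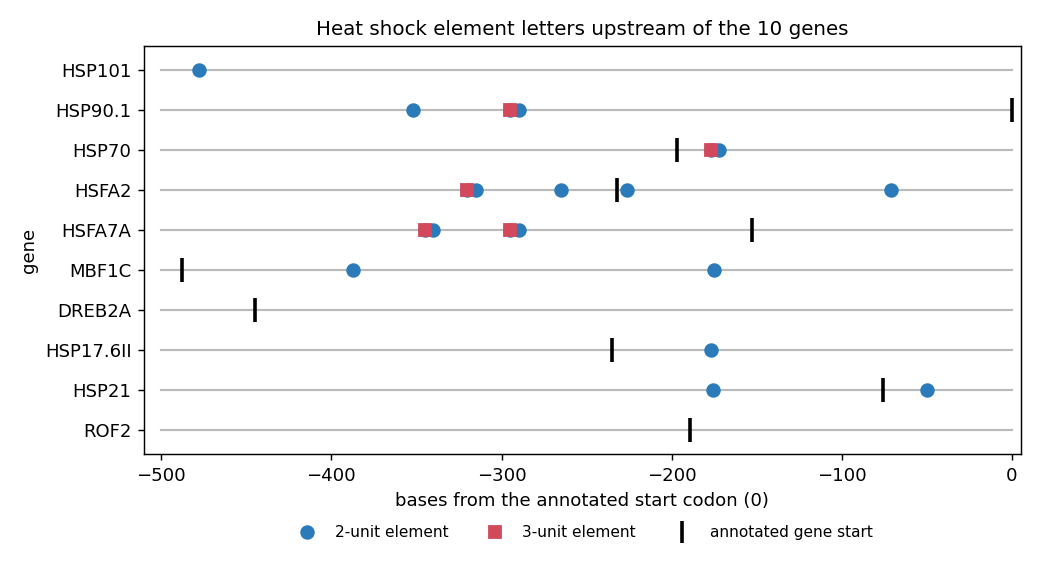
Positions of heat shock element letters in the 500 bases before the annotated start codon of each of the 10 genes (x axis, bases from the start codon; blue circles, pairs; red squares, 3-unit runs; black ticks, annotated gene start where it lies in the window). Runs of 3 units are seen for HSP90.1, HSP70, HSFA2 and HSFA7A, and the windows of DREB2A, whose run lies farther upstream, and of ROF2 hold no match.

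Library totals were 6410046 to 7723602 counts. The 4 leaf markers examined (RBCS1A, LHCB1.1, CA1 and RCA) had more than 3 counts in every library, but so did all 6 root markers (PYK10, EXPA7, COBL9, SKOR, CASP1 and TIP2;3), so transcripts used as root markers were present in libraries labelled as leaf. The summed leaf markers stood at 21390 and 23210 CPM (counts relative to the scaled size of each library) in the controls, 20670 and 20140 under 100 µM, and 13870 and 12670 under 1000 µM. The summed root markers stood at 3232 and 3357, 3098 and 3158, and 2034 and 2077 CPM in the same order. Both sums were thus lower under 1000 µM, and the part of cell makeup in the changes below was not tested. In whole-tissue RNA, fewer cells of a type and less RNA per cell cannot be told apart. Counts differed between the 2 libraries of a group by a chi-square per degree of freedom of 1.92 in the controls, 1.81 under 100 µM and 5.43 under 1000 µM.

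The regulators took different courses. HSFA2, an activator that keeps the heat response going, was at 9.46 and 8.06 CPM in the control libraries, 2.68 and 2.02 CPM under 100 µM, and 2.91 and 2.15 CPM under 1000 µM. All 4 treated libraries lay below both controls, and the ranges of the doses overlapped. The log2 change was -1.88 ± 0.30 (standard error, as for every log2 change below) under 100 µM and -1.79 ± 0.29 under 1000 µM, which is 3.69-fold and 3.46-fold lower. Between the doses it was 0.09 ± 0.37. The controls held 65 and 59 counts of the gene, and the treated libraries 13 to 21.

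HSFA7A, a related activator that class A1 HSFs induce, went the other way. It was at 47.6 and 52.1 CPM in the controls, 55.2 and 59.2 CPM under 100 µM, and 75.7 and 99.0 CPM under 1000 µM. Both 100 µM libraries were above both controls by a small margin, and both 1000 µM libraries were above all the others. The log2 change was 0.20 ± 0.13 under 100 µM and 0.81 ± 0.12 under 1000 µM, the latter 1.75-fold higher, and 0.61 ± 0.12 between the doses.

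DREB2A, a transcription factor of both dehydration and heat that acts upstream of HSFA3, changed sides with the dose. It was at 13.5 and 9.70 CPM in the controls, 6.56 and 6.06 CPM under 100 µM, and 18.6 and 20.1 CPM under 1000 µM. The 3 groups did not overlap, with the controls in the middle and spread the most. The log2 change was -0.87 ± 0.22 under 100 µM (1.83-fold lower), 0.74 ± 0.18 under 1000 µM (1.67-fold higher) and 1.61 ± 0.20 from the lower to the higher dose. Without control replicate 1 the first was -0.62, and without control replicate 2 the second was 0.52. DREB2A overlaps AT5G05420, which was at 1.11 to 2.49 CPM over the 6 libraries, and reads of their overlap cannot be told apart without strand.

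MBF1C, a transcriptional coactivator needed for heat tolerance, was at 17.75 and 18.7 CPM in the controls, 9.69 and 10.6 CPM under 100 µM, and 21.1 and 20.6 CPM under 1000 µM. It was 1.80-fold lower at the lower dose (log2 change -0.85 ± 0.16), and close to the control at the higher, where the log2 change was 0.19 ± 0.14. From 100 to 1000 µM the log2 change was 1.04 ± 0.16. The gene overlaps AT3G24495 and AT3G24503 in the annotation, and without strand their reads cannot be told apart where they overlap. Those neighbours had log2 changes of 0.28 and 0.15 under 100 µM and of 0.08 and 0.51 under 1000 µM.

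Among the chaperones, HSP101, the cytosolic disaggregase, was lower at both doses. It was at 37.6 and 36.6 CPM in the controls, 19.2 and 16.2 CPM under 100 µM, and 18.8 and 15.9 CPM under 1000 µM. The treated libraries were all lower than the controls by a wide gap, and the doses overlapped almost wholly. The log2 change was -1.06 ± 0.14 and -1.10 ± 0.14 at the lower and higher dose, 2.09-fold and 2.14-fold lower, and -0.03 ± 0.15 between them. AT1G74300, which overlaps HSP101, was at 0.83 to 2.64 CPM over the 6 libraries.

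HSP90.1, the heat-inducible HSP90 of the cytosol, changed sides with the dose. It was at 52.4 and 48.8 CPM in the controls, 31.8 and 28.4 CPM under 100 µM, and 120.3 and 80.5 CPM under 1000 µM. Here too the groups did not overlap, and the 1000 µM libraries lay far apart. The log2 change was -0.75 ± 0.16 under 100 µM, 0.99 ± 0.15 under 1000 µM and 1.73 ± 0.16 between the doses, the last a 3.33-fold difference.

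HSP70, a cytosolic heat-inducible HSP70, was at 138 and 137 CPM in the controls, 98.9 and 79.2 CPM under 100 µM, and 295 and 185 CPM under 1000 µM. Both libraries of the lower dose were below the controls and both of the higher dose above them. The log2 change was -0.62 ± 0.16, 0.81 ± 0.15 and, from the lower to the higher dose, 1.43 ± 0.16. Under 1000 µM replicate 1 stood above replicate 2 by a ratio of 1.59 for HSP70 and 1.49 for HSP90.1, against a median ratio of 1.01 over all tested genes. The ratios of MBF1C (1.02) and DREB2A (0.923) were nearer to 1.

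The co-chaperone ROF2 was the least abundant in the controls per transcript length among the genes that passed the filter, at 3.03 CPM per kb. It was at 6.55 and 6.83 CPM in the controls, 4.18 and 4.66 CPM under 100 µM, and 5.54 and 5.31 CPM under 1000 µM, with no overlap between the groups. The log2 changes of -0.60 ± 0.26 and -0.30 ± 0.24 did not pass the test described below. On the same scale of length the controls held 54.5 CPM per kb of HSP70, 43.0 of HSFA7A, 24.1 of HSP90.1, 16.7 of MBF1C, 11.3 of HSP101, 7.04 of DREB2A and 4.67 of HSFA2.

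Small HSPs of the list were near the detection limit in every group. HSP17.6II, a class II small HSP of the cytosol, gave 6 and 10 counts without melatonin, 7 and 3 with 100 µM, and 10 and 9 with 1000 µM, so either dose overlapped the controls while the higher dose lay above the lower. The filter on low counts removed the gene from the fit. HSP21, the small HSP of chloroplasts, had 1 count in 100 µM replicate 2 and 0 in the other 5 libraries. A count of 0 allows up to 0.379 to 0.466 CPM in these libraries (3 counts), which covers counting error only. In the fit without a filter, which tested all 10 genes, neither was called in any of the 3 comparisons.

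**Figure D2:**
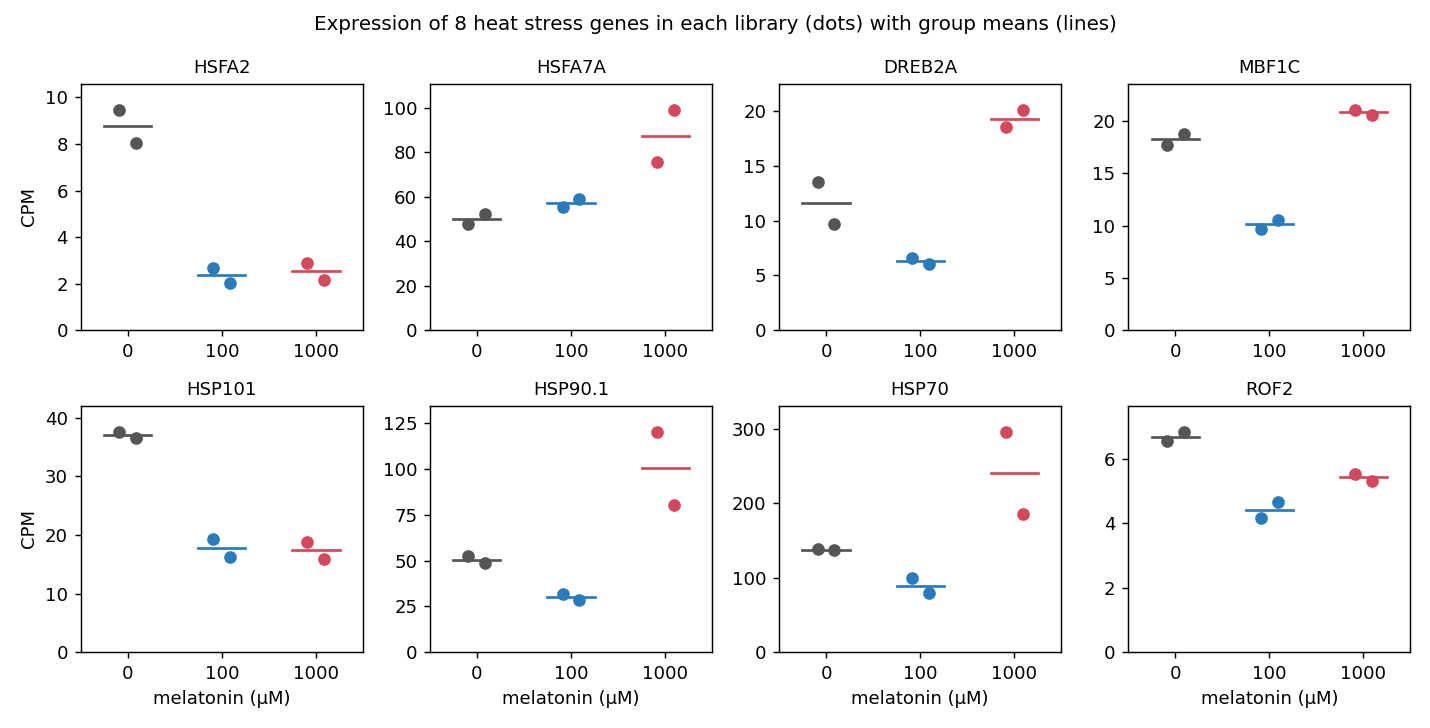
Expression (y axis, CPM, linear from 0) of the 8 genes that passed the filter, by melatonin dose (x axis, µM, evenly spaced); each dot is a library and each line a group mean of 2 libraries. HSFA2 and HSP101 are low at both doses, HSP90.1, HSP70 and DREB2A are below the controls under 100 µM and above them under 1000 µM, and HSFA7A is highest under 1000 µM.

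Read across the doses, 7 of the 8 genes were lower under 100 µM than in the controls and 1, HSFA7A, was higher. In edgeR's quasi-likelihood fit over 18380 genes, 6 of 8 were called lower under 100 µM (HSFA2, DREB2A, MBF1C, HSP101, HSP90.1 and HSP70) and 0 higher at an adjusted p of 0.05. Of all tested genes 3.32% were called at that dose, 1.53% as lower and 1.79% as higher. DESeq2 did not call DREB2A or HSP70 at that dose. With 1 control or 100 µM library left out, fewer of the 6 were called. Each of the 6 stayed lower, which the lack of overlap between these groups fixes in advance. The log2 changes of the 6 in these settings lay between -0.47, for HSP70 without 100 µM replicate 2, and -2.11, for HSFA2 without 100 µM replicate 1. Under 1000 µM 4 of 8 were called higher (HSFA7A, DREB2A, HSP90.1 and HSP70) and 2 lower (HSFA2 and HSP101), where 29.6% of all tested genes were called, 15.2% as higher and 14.5% as lower. From 100 to 1000 µM 5 of 8 were called higher (the same 4 and MBF1C) and 0 lower, beside 16% of all tested genes, 8.65% called higher and 7.3% lower. By non-overlap alone, both 100 µM libraries lay below both controls for 7 genes and above for 1, against 25% and 25.4% of all tested genes. Both 1000 µM libraries lay above both controls for 5 and below for 3, against 31.5% and 33.1%, and above both 100 µM libraries for 6 and below for 0, against 27.5% and 27.7%. The median log2 change of the 8 was -0.80, 0.46 and 0.83 in the 3 comparisons, beside -0.01, -0.01 and 0 over all tested genes. The first 2 comparisons share the control libraries, and the members were picked on these contrasts, so nothing is read from the counts.

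**Figure D3:**
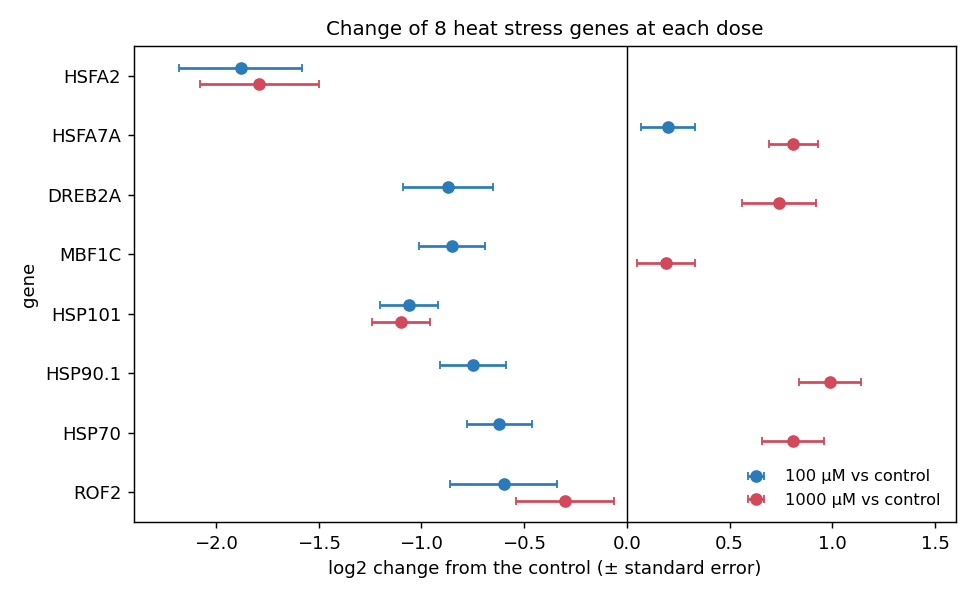
Log2 change from the control (x axis) of each gene under 100 µM (blue) and 1000 µM (red), with bars of 1 standard error from the edgeR fit. HSFA2 and HSP101 keep the same change at both doses (-1.88 and -1.79, -1.06 and -1.10), while DREB2A, HSP90.1 and HSP70 pass from below 0 to above it.

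The rest of the HSF family was set beside its 2 listed genes. Of 19 other HSF genes 12 passed the filter, and under 100 µM 0 were called by edgeR or DESeq2 (1 lower when only these groups were fitted, and 3 at an unadjusted p under 0.05), with a median log2 change of 0. Under 1000 µM 2 of the 12 rose and 1 fell, with a median of 0.23. At that dose 29.6% of all tested genes were called, 15.2% as higher and 14.5% as lower. Nothing about the family is read from its count, and the same shares apply to the counts of the lists below. HSFB2A (AT5G62020), a class B HSF that represses heat genes, was at 18.2 and 17.9 CPM without melatonin and rose to 46.9 and 36.1 CPM, a difference of 1.2 ± 0.14 on the log2 scale (edgeR's quasi-likelihood test, adjusted p = 6.73e-06). HSFA4A (AT4G18880), an activator tied to oxidative stress, rose by 0.81 ± 0.16 on the log2 scale (adjusted p = 0.000934). HSFA1B (AT5G16820), a class A1 HSF named here after its value was seen, had a log2 change of -0.48 ± 0.18 (adjusted p = 0.0485), and its adjusted p was 0.0527 to 0.251 without any one of the 6 libraries. The other 3 class A1 genes, HSFA1A, HSFA1D and HSFA1E, differed from the controls by -0.49, 0.11 and 0.50 in log2 (adjusted p = 0.105, 0.674 and 0.223). HSFB2B (AT4G11660), also of class B, had 10.9 and 10.3 CPM in the controls, 5.96 and 7.15 under 100 µM, and 11.9 and 12.9 under 1000 µM. Its log2 change under 100 µM was -0.69 ± 0.21 (adjusted p = 0.0888), and it rose by 0.92 ± 0.20 between the doses (adjusted p = 0.00436), with 0.0777 without 100 µM replicate 1. HSFA3 (AT5G03720), which DREB2A is known to switch on, was at 12.5 and 9.02, 6.86 and 8.23, and 5.95 and 7.96 CPM over the groups, with adjusted p of 0.312 and 0.0538. Among genes not tested, HSFB1 and HSFA9 had 0 counts in all 6 libraries.

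Of the other DREB2 and MBF1 genes, 0 of 5 tested were called under 100 µM, with a median log2 change of 0.08 (DESeq2 also called 0, and 0 had an unadjusted p under 0.05). Under 1000 µM 2 of 5 rose, median 0.32. DREB2C (AT2G40340), another heat-responsive DREB2 gene, rose from 2.3 ± 1.0 to 6.2 ± 1.2 CPM (mean and SD, n = 2), by 1.40 ± 0.34 in log2 (edgeR adjusted p = 0.00534), and its log2 change was 1.01 without control replicate 2 (adjusted p = 0.0924). MBF1A (AT2G42680), a constitutive relative of MBF1C, rose by 0.32 ± 0.10 (adjusted p = 0.0211), a call that ended without either control replicate (0.144 and 0.115) and with DESeq2 (0.0789). For MBF1B (AT3G58680) the values were 0.06 and 0.16 (adjusted p = 0.840 and 0.221). The 9 genes for turnover or partners of the DREB2A protein all passed the filter. They were the ubiquitin ligases DRIP1 and DRIP2, the substrate adaptors BPM1 to BPM6, and NF-YC10. In each of the 3 comparisons 0 were called by edgeR or DESeq2 (0, 0 and 1 at an unadjusted p under 0.05). Their median log2 changes were -0.06, 0.10 and 0.07. Of 4 tested targets of DREB2A in dehydration, 0 were called under 100 µM by edgeR or DESeq2 (0 at an unadjusted p under 0.05), and COR47 (AT1G20440) and LEA14 (AT1G01470) rose by 0.44 ± 0.09 and 0.36 ± 0.13 under 1000 µM (adjusted p = 0.00132 and 0.0379). The call of LEA14 ended without any of 5 libraries, 1000 µM replicate 2 being the exception, and the adjusted p there was 0.0578 to 0.210. RD29A (AT5G52310), the usual reporter of this pathway, was at 4.80 and 7.24 CPM in the controls and 4.29 and 4.68 CPM under 1000 µM (adjusted p = 0.289).

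**Figure D4:**
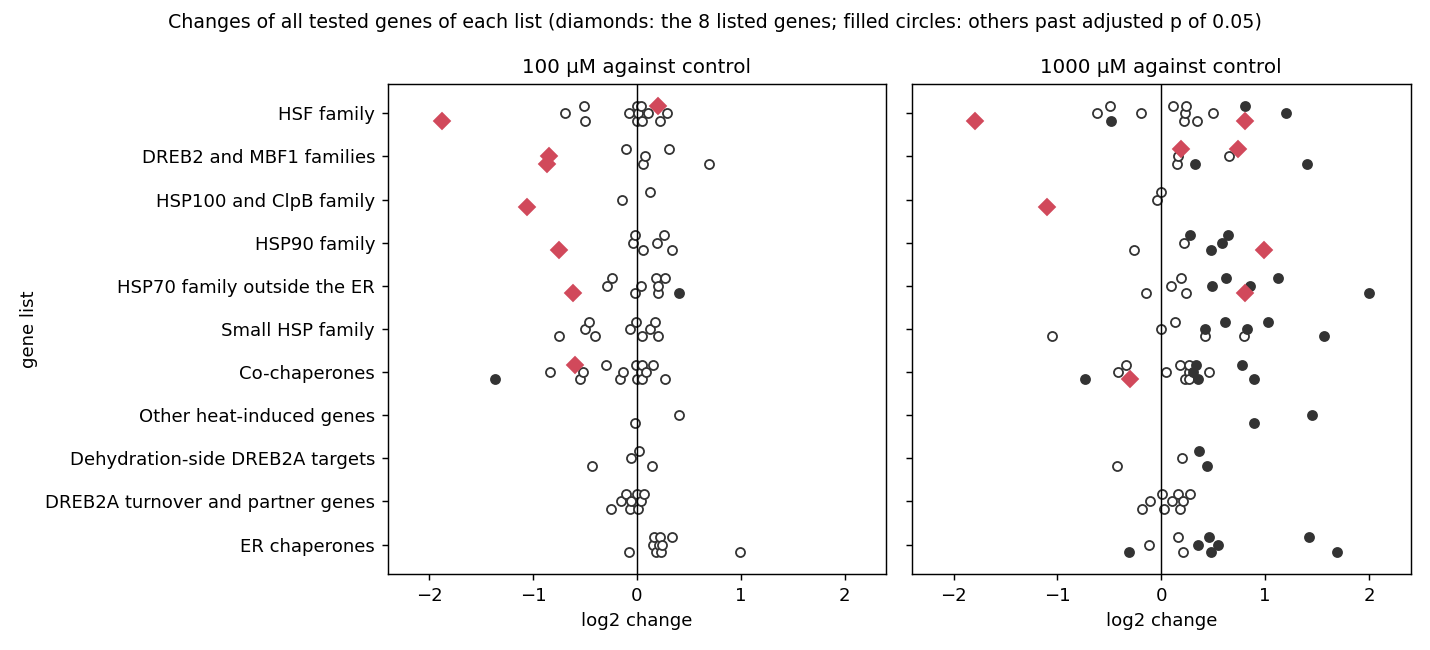
Log2 change from the control (x axis) under 100 µM (left) and 1000 µM (right) of every tested gene of 11 gene lists (y axis). Red diamonds are the 8 listed genes, filled circles other genes past an adjusted p of 0.05 and open circles those that did not pass. Under 100 µM the diamonds, HSFA7A excepted, lie to the left while most circles stay near 0, with BAG6 the filled circle at -1.37. The diamonds were chosen with earlier results of these libraries known, so this contrast is a description.

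Of the 6 HSP90 genes besides HSP90.1, 0 were called under 100 µM by edgeR or DESeq2. At an unadjusted p under 0.05 there were 2, and 2 rose when only these groups were fitted. HSP90.2, HSP90.3 and HSP90.4, the constitutive cytosolic forms, had log2 changes of 0.06, -0.04 and 0.19 under 100 µM (adjusted p = 0.846, 0.906 and 0.589), where HSP90.1 had -0.75. HSP90.5, HSP90.6 and HSP90.7, the forms of chloroplasts, mitochondria and the endoplasmic reticulum (ER), had 0.26, 0.34 and -0.02 (adjusted p = 0.177, 0.0890 and 0.958). Under 1000 µM 4 of the 6 other genes rose. HSP90.6 (AT3G07770) rose from 56.6 ± 1.4 to 88.1 ± 4.0 CPM (mean and SD, n = 2), by 0.64 ± 0.10 in log2 (edgeR adjusted p = 0.000114) and HSP90.2 (AT5G56030) from 331 ± 12.2 to 494 ± 67.2 CPM (0.58 ± 0.10, adjusted p = 3e-04). HSP90.5 (AT2G04030) rose by 0.48 ± 0.10 (adjusted p = 0.00106). HSP90.3 (AT5G56010) had 0.28 ± 0.10 (adjusted p = 0.0494, and 0.0986 to 0.267 without either control replicate, either 100 µM replicate or 1000 µM replicate 1). HSP90.4 and HSP90.7 had 0.22 and -0.26 (adjusted p = 0.289 and 0.0697).

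HSP90.1 made up 7.35% ± 0.53 of the counts of the 4 cytosolic HSP90 genes in the controls, 4.44% ± 0.33 under 100 µM and 10.3% ± 1.3 under 1000 µM (SD, n = 2). Their summed level was 689 ± 14.5, 678 ± 2.8 and 966 ± 151 CPM. Under the lower dose the sum lay within 1 SD of the controls and the share of HSP90.1 was smaller. No stretch of 50 bases of HSP90.1's longest transcript occurred in another gene's, whereas HSP90.2, HSP90.3 and HSP90.4 shared 18.8%, 23.9% and 18.7% of theirs with each other, so the split among those 3 is uncertain.

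HSP70 made up 4.81% ± 0.17 of the counts of the cytosolic HSP70 genes in the controls, 3.14% ± 0.53 at the lower dose and 5.66% ± 0.66 at the higher (SD, n = 2). The other cytosolic genes HSC70-1 (AT5G02500), HSC70-2 (AT5G02490), HSC70-3 (AT3G09440) and HSP70B (AT1G16030) had log2 changes of 0.04, 0.20, -0.29 and -0.02, where HSP70 had -0.62 (adjusted p of the 4: 0.908, 0.748, 0.292 and 0.985). Of 9 other genes tested outside the ER 1 rose under 100 µM, the mitochondrial mtHSC70-1 (AT4G37910), by 0.40 ± 0.10 (adjusted p = 0.0343), which ended without any one of the 4 libraries compared (0.167 to 0.426) and with the replicate number as a block (0.0774). With only these groups fitted, or without either 1000 µM library, 3 rose and 1 fell, HSC70-3, at an adjusted p of 0.00165 to 0.00219. Under 1000 µM 5 of 9 rose, with a median log2 change of 0.49. HSC70-2 rose from 37.8 ± 2.4 to 151 ± 69.9 CPM (mean and SD, n = 2), by 2.0 ± 0.21 in log2 (edgeR adjusted p = 1.3e-06), with 201 and 102 CPM in the 2 libraries of that dose. The mitochondrial genes mtHSC70-1 and mtHSC70-2 (AT5G09590) rose from 149 ± 8.8 to 323 ± 37.4 CPM and from 48.3 ± 3.0 to 87.0 ± 6.3 CPM (adjusted p = 1.77e-07 and 2.14e-05). The longest transcript of mtHSC70-2 shares 16.3% of its 50-base stretches with AT4G32208, so its value is uncertain. HSC70-1, the most abundant of the family, rose from 2418 ± 76.4 to 3400 ± 639 CPM, by 0.49 ± 0.12 in log2 (adjusted p = 0.00423, and 0.0823 without control replicate 1), and HSC70-3 rose by 0.62 ± 0.13 (adjusted p = 0.00113). HSP70B, a heat-induced gene, had -0.15 ± 0.30 (adjusted p = 0.739), and the chloroplast genes cpHSC70-1 and cpHSC70-2 had 0.24 and 0.09 (adjusted p = 0.0510 and 0.516).

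In 1000 µM replicate 1 all 4 cytosolic HSP90 genes and 4 of the 5 tested cytosolic HSP70 genes were higher than in replicate 2, and HSP70B was lower, at a ratio of 0.527. The ratio of the libraries was 1.97 for HSC70-2, 1.43 for HSC70-3, 1.31 for HSC70-1 and 1.21 to 1.27 for HSP90.2, HSP90.3 and HSP90.4, beside 1.59 and 1.49 for HSP70 and HSP90.1. These ratios were singled out after their values were seen. HSP70 and HSP90.1 were above both controls in either library of that dose, a description, as both were picked on these contrasts. In the controls the ratio of replicate 1 to replicate 2 was 0.949 to 1.15 for the 8 genes other than HSP70B, and 0.916 for HSP70B. Under 100 µM it ran from 0.852 (HSP90.4) to 1.25 (HSP70) for the 8, and was 0.837 for HSP70B.

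**Figure D5:**
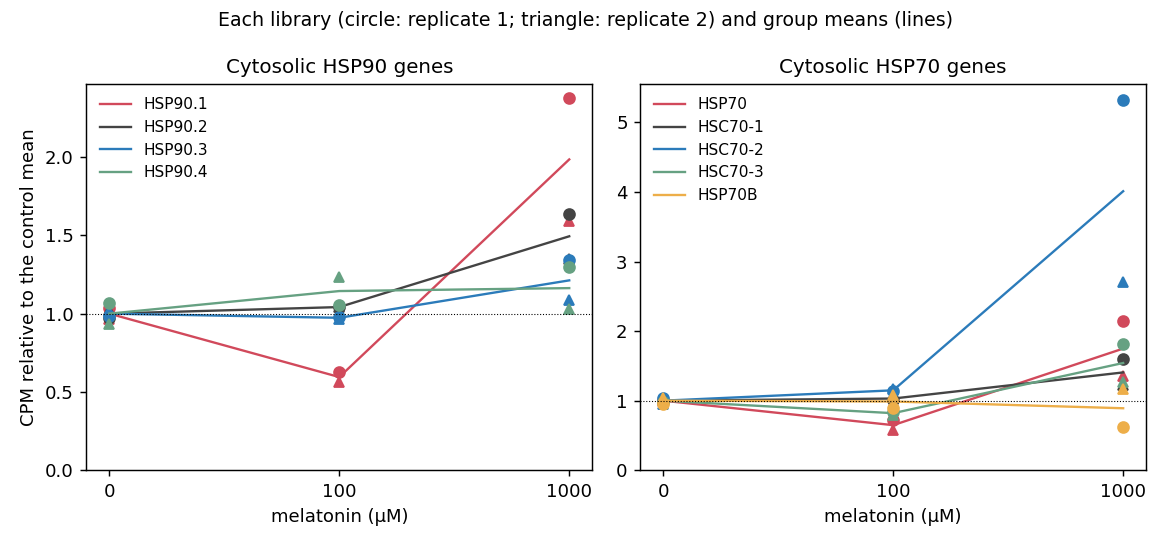
Expression of cytosolic HSP90 genes (left) and HSP70 genes (right) relative to the control mean of each gene (y axis) by melatonin dose (x axis, µM, evenly spaced); circles are replicate 1, triangles replicate 2 and lines group means. HSP90.1 and HSP70 dip under 100 µM below their relatives, and under 1000 µM the circles of most genes lie above the triangles.

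HSP101's relatives were not called in any comparison by edgeR or DESeq2, and 0 had an unadjusted p under 0.05. CLPB3 and CLPB4 (AT5G15450 and AT2G25140), the chloroplast and mitochondrial disaggregases, had log2 changes of 0.13 and -0.14 under 100 µM and of -0.04 and 0 under 1000 µM, with adjusted p of 0.674 to 0.999. Among 16 other small HSPs 10 passed the filter. Under 100 µM 0 were called by edgeR or by DESeq2 (1 at an unadjusted p under 0.05), and the median log2 change was -0.04. Under 1000 µM 5 rose and 0 fell, median 0.51, but 1 was called with DESeq2 or without 1000 µM replicate 1 or control replicate 1, and 2 without control replicate 2. HSP17.8 (AT1G07400), of the cytosolic class I, was at 6.26 and 7.11 CPM in the controls, 2.98 and 4.97 under 100 µM, and 14.5 and 9.35 under 1000 µM. Its log2 change under 1000 µM was 0.83 ± 0.25 (adjusted p = 0.0208, and 0.206 without 1000 µM replicate 1, 0.123 and 0.0607 without control replicate 1 or 2). HSP17.6A (AT5G12030), the class II relative of HSP17.6II, had 1.57 ± 0.40 (adjusted p = 0.00648, and 0.0656 without 1000 µM replicate 1 and 0.0986 without control replicate 2). HSP23.5 (AT5G51440), of mitochondria, had 0.61 ± 0.22 (adjusted p = 0.0405, and 0.0723, 0.253 and 0.0859 without control replicate 1, control replicate 2 or 1000 µM replicate 2). The other 2, named after their values were seen, were HSP17.6B-CI (AT2G29500; 1.03 ± 0.33, adjusted p = 0.0268) and HSP18.5 (AT2G19310; 0.42 ± 0.14, adjusted p = 0.0301). From 100 to 1000 µM HSP17.8 rose by 1.58 ± 0.28 (adjusted p = 0.000859).

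Of 15 other co-chaperones, all tested, 1 fell under 100 µM and 0 rose, and 3 fell with only these groups fitted, without a filter, or without either 1000 µM library. The 1 was BAG6 (AT2G46240), a heat-induced co-chaperone named after its value was seen, at 8.59 and 10.7 CPM in the controls, 4.33 and 3.11 under 100 µM, and 4.15 and 7.33 under 1000 µM. Its log2 change under 100 µM was -1.37 ± 0.30 (adjusted p = 0.0155, and 0.0968 to 0.264 without control replicate 2 or either 100 µM library). Under 1000 µM it was -0.73 ± 0.27 (adjusted p = 0.0484, and 0.0650 to 0.309 without any library except 1000 µM replicate 2). At that dose 5 other co-chaperones rose, 2 of them without control replicate 1 and 2 without control replicate 2. J2 (AT5G22060), a DnaJ partner of HSP70, rose from 75.9 ± 1.4 to 141 ± 11.3 CPM (mean and SD, n = 2), by 0.89 ± 0.10 in log2 (edgeR adjusted p = 1.93e-06). BOB1 (AT5G53400), a non-canonical small HSP counted here with the co-chaperones, rose by 0.78 ± 0.12 (adjusted p = 0.000106). J3, SGT1B and P23-1, named after their values were seen, rose by 0.33, 0.35 and 0.31 (adjusted p = 0.0109, 0.0117 and 0.0179). FES1A (AT3G09350), which guards cytosolic HSP70 in heat, had 0.46 ± 0.17 against the control (adjusted p = 0.0506) and rose by 0.76 ± 0.18 from 100 µM (adjusted p = 0.00666, and 0.0533 and 0.0890 without 100 µM replicate 1 or 2). ROF1 (AT3G25230), a relative of ROF2, differed from the controls by 0.05 and 0.27 in log2 at the lower and higher dose (adjusted p = 0.899 and 0.0932).

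Of 3 further heat-induced genes, 2 were tested, and both rose at the higher dose. GOLS1 (AT2G47180), galactinol synthase, rose from 4.4 ± 0.3 to 12.1 ± 2.0 CPM (mean and SD, n = 2), by 1.45 ± 0.23 in log2 (edgeR adjusted p = 0.000131). HSA32 (AT4G21320), which prolongs heat tolerance together with HSP101, rose from 4.6 ± 1.0 to 8.6 ± 0.5 CPM (0.89 ± 0.25, adjusted p = 0.0124, 0.134 without control replicate 1 and 0.0829 with DESeq2), while HSP101 was lower. Under 100 µM they had 0.40 and -0.02 (adjusted p = 0.522 and 0.980). APX2, a cytosolic ascorbate peroxidase that is a classic HSFA2 target, had 2 libraries with a count and was not tested.

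A list of ER chaperones and BZIP60, a transcription factor of their separate stress pathway, was set beside the cytosolic chaperones. Under 100 µM 0 of 10 were called (0 with DESeq2 as well, 3 when only these groups were fitted, 4 at an unadjusted p under 0.05), and the median log2 change was 0.21. Under 1000 µM 6 rose and 1 fell, median 0.40, with 4 rising without control replicate 1. The 1 that fell was CRT1 (AT1G56340), a calreticulin named after its value was seen (log2 change -0.31 ± 0.09, adjusted p = 0.0203), and 0 fell with DESeq2, with only these groups fitted, or without either control or either 100 µM library. BZIP60 (AT1G42990), a transcription factor of ER stress, rose from 43.6 ± 1.7 to 116 ± 11.5 CPM (mean and SD, n = 2), by 1.42 ± 0.11 in log2 (edgeR adjusted p = 2.95e-08). BIP2 (AT5G42020) and BIP3 (AT1G09080), HSP70s of the ER, rose by 0.55 ± 0.10 and 1.69 ± 0.34 (adjusted p = 0.000305 and 0.00102). BIP2 shares 24.8% of its 50-base stretches with BIP1, so its value is uncertain.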

How the data were processed

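RNA-seq read counts per gene were used as the authors deposited them: raw counts, whose column totals differ between libraries. The tools named, per the submitters' processing notes, are TopHat2 2.0.12 and Bowtie2 2.2.3, HTSeq 0.6.1 and the package DESeq, with TAIR10 as build. For their roles, options and strand, the sources used here give nothing. Samples were grouped by the dose in their titles. The members and gene lists were chosen with earlier results of these data known.

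In R 4.3.3, filterByExpr of edgeR 4.0.16 kept 18380 of 32678 genes. Libraries were scaled by TMM, and all 6 were fitted with the 3 groups as the only term. For the 3 comparisons edgeR's quasi-likelihood test was used (two-sided), with p adjusted by Benjamini-Hochberg over all tested genes at 0.05. The fit was tested on simulated data. The standard error is the absolute log2 change over the square root of F. CPM are the deposited counts over the TMM-scaled library size. The biological coefficient of variation was 7.78%. One count was worth 0.126 to 0.155 CPM.

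Genes named are the 10 members, all HSP90 genes, and in each list up to 3 others with the smallest adjusted p over the 3 comparisons, among those called in any. Every other gene named was chosen after its values were seen. The 500-base window was added after the 250-base one was seen. Alternatives were RLE scaling, DESeq2 1.42.0, no filter, only the groups compared, the replicate number as a block and leaving out each library. Sequences, transcript lengths (longest transcript) and overlaps come from RefSeq TAIR10.1, and 31912 of 32678 identifiers were found there. The count table holds no coordinates, and no protein sequence was used here.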

Additional observations from a re-analysis of the deposited data

How the results depend on the processing

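Genes called at 100 µM numbered 610, against 335 with DESeq2, 1091 without a filter, 1697 with only those groups fitted, 446 with the replicate number as a block, and 101 to 1757 with a library left out. Genes called at 1000 µM numbered 5442, against 3328 with DESeq2, 4959 with the block, and 3318 to 6684 with a library left out. Between the doses they numbered 2932, against 1625 with DESeq2, 2508 with the block, and 1158 to 4442 with a library left out. Members called at 100 µM numbered 6, against 5 with the block and 4 with DESeq2. HSP70 and DREB2A were not called by DESeq2's Wald test (adjusted p = 0.493 and 0.13). Fewer members were called with a control or 100 µM library left out. At 1000 µM they were 6, or 5 without control replicate 2, and between the doses 5, or 4 without 100 µM replicate 1. The cause of these shifts was not tested. With the block DREB2A at 100 µM was not called. The labels do not pair libraries by number. Differences between replicates correlated between groups by 0.03, -0.03 and -0.07 over 18380 genes, so no broad shift shared by number was seen. A correlation over all genes cannot show pairing that touches few of them.

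Changes that turned sign were all uncalled. Some were near 0, and others, such as DREB2C and HSP17.6A under 100 µM, ranged widely with the library left out. Between the doses HSFA2 had -0.09 without 100 µM replicate 2 and -0.13 without 1000 µM replicate 1, HSP101 0.11 without 100 µM replicate 1 and 0.10 without 1000 µM replicate 2, HSFA1B -0.16 without 100 µM replicate 2, and HSP90.4 -0.08 and -0.15 without replicate 1 of 100 or 1000 µM. At 100 µM, without control replicate 2, COR47 had 0, DREB2C -0.08, HSA32 0.22 and HSP17.6A -0.26. Without 100 µM replicate 1 HSA32 had 0.14, HSFB2A -0.03 and MBF1A -0.01, and without 100 µM replicate 2 HSP90.7 had 0.05. With a library left out, the same changes ranged up to 0.32 for HSFA2, 0.25 for HSFA1B and 0.20 for HSP90.4 between the doses, and under 100 µM up to 0.81 for DREB2C, 0.73 for HSP17.6A and 0.16 for MBF1A and down to -0.22 for HSA32. Low counts kept HSP21 and HSP17.6II out of the filtered fit, and without the filter neither was called.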
